A study of Mus musculus with 6 samples.

Results

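The genes described here are the ATP-binding cassette (ABC) transporters of subfamilies A, B, C and G in mouse kidney. The rule for choosing them uses gene name alone, but it was set with earlier results of these data known. It takes all rows of the expression table with values whose symbol is Abca, Abcb, Abcc or Abcg followed by a number. This gave 40 of 19503 rows with values. 2 further rows of the pattern, Abca15 and Abca16, held no values.

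ABC transporters use ATP to move a substrate across a membrane, mostly out of the cell or into an organelle. In the kidney tubule some of them stand in the apical brush border and pump drugs, conjugates and urate into the urine, others export cholesterol and phospholipid, and others serve mitochondria and lysosomes. A few do not pump at all: the sulfonylurea receptors are regulatory subunits of potassium channels that close when ATP is plentiful.

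RNA came from frozen kidneys of mice 8 weeks old, in 2 groups of 3 libraries. The first group is labelled wild type (WT). The second, here NICD2_Pax8, is labelled R26NICD2/+pax8cre, that is, 1 copy of an allele at Rosa26 that encodes the intracellular domain of Notch2, with a Cre driven by Pax8, a transcription factor of tubule epithelium. The title of the series names a Pax-rtTA driver instead, and the titles of the WT libraries begin with NICD, so the driver, and whether WT kidneys carried the allele without it, remain unclear. The labels do not say whether each library is a different mouse. The p-values therefore reflect the variation among these libraries alone, which need not be the variation among mice.

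Values are FPKM, fragments scaled to transcript length and sequencing depth, so levels can be compared between genes. The file holds no counts. From the steps between low values, depth was estimated at 14700000 to 17800000 fragments a library. The row named NOTCH2 stood at 1.27 to 3.75 FPKM in WT and at 500.5 to 570 FPKM in NICD2_Pax8. Proximal tubule, thick ascending limb and principal cell markers were above 0 in all 6 libraries. The summed FPKM of 8 proximal tubule markers was 4184 to 6146 in WT and 136 to 595 in NICD2_Pax8, and all 8 fell. In bulk tissue, fewer cells of a type and less RNA per cell cannot be told apart. WT replicate 1 stood apart: its 5 adrenal cortex markers summed to 3629 FPKM against at most 1.63 in the other 5 libraries, and its 5 adipocyte markers to 4310 FPKM against at most 892.

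Among the ABC transporters, the sulfonylurea receptor gene Abcc8 went from near 0 to one of the more abundant members in NICD2_Pax8 kidneys, while its relative Abcc9 fell. The abundant brush border pump Abcg2 and the lipid transporters Abca3, Abca13 and Abca8a fell, and the efflux pumps Abcc1 and Abcc4 and the cholesterol exporter Abcg1 rose. Of the 40 members, 27 passed the expression filter of 1 FPKM in at least 3 libraries. Of these 27, 6 rose, 10 fell and 11 did not pass an adjusted p of 0.05 in limma, a linear model fitted over all 13500 genes on log2(FPKM + 1). Rises made up 22.2% of the tested members against 45.1% of all genes tested, and falls 37% against 16.2%. In FPKM, 7 of the 27 lay wholly higher and 10 wholly lower in NICD2_Pax8, with no overlap between groups, against 49.9% and 18.8% of all genes tested. With a log2 fold change of at least 1 in size as well, 2 members rose and 5 fell, against 18% and 7.47% of all genes. The median log2 fold change was -0.20 over the members and 0.32 over all genes tested.

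The positive median of all genes moved to 0.02 when libraries were scaled by the median of their ratios, a step that brings it near 0 by design. What the unscaled median of 0.32 came from was not tested. After this scaling 4 members rose (14.8%, against 28.7% of all genes) and 15 fell (55.6%, against 25.7%), with a member median of -0.52. The calls that held without scaling, with it and without each library in turn were 10. Abcc1, Abcc4, Abcc8 and Abcg1 rose, and Abca3, Abca8a, Abca9, Abca13, Abcc9 and Abcg2 fell. The share of all genes that held a call over the same fits was not counted. Whether 10 is many or few beside all genes was therefore not tested. In the authors' deposited table, 5 members were higher and 17 lower at a q under 0.05, against 21.3% and 21.5% of its 19439 genes. Without WT replicate 1, 7 members rose and 10 fell in the unscaled fit, against 49.1% and 16.9% of 13750 genes.

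**Figure D1:**
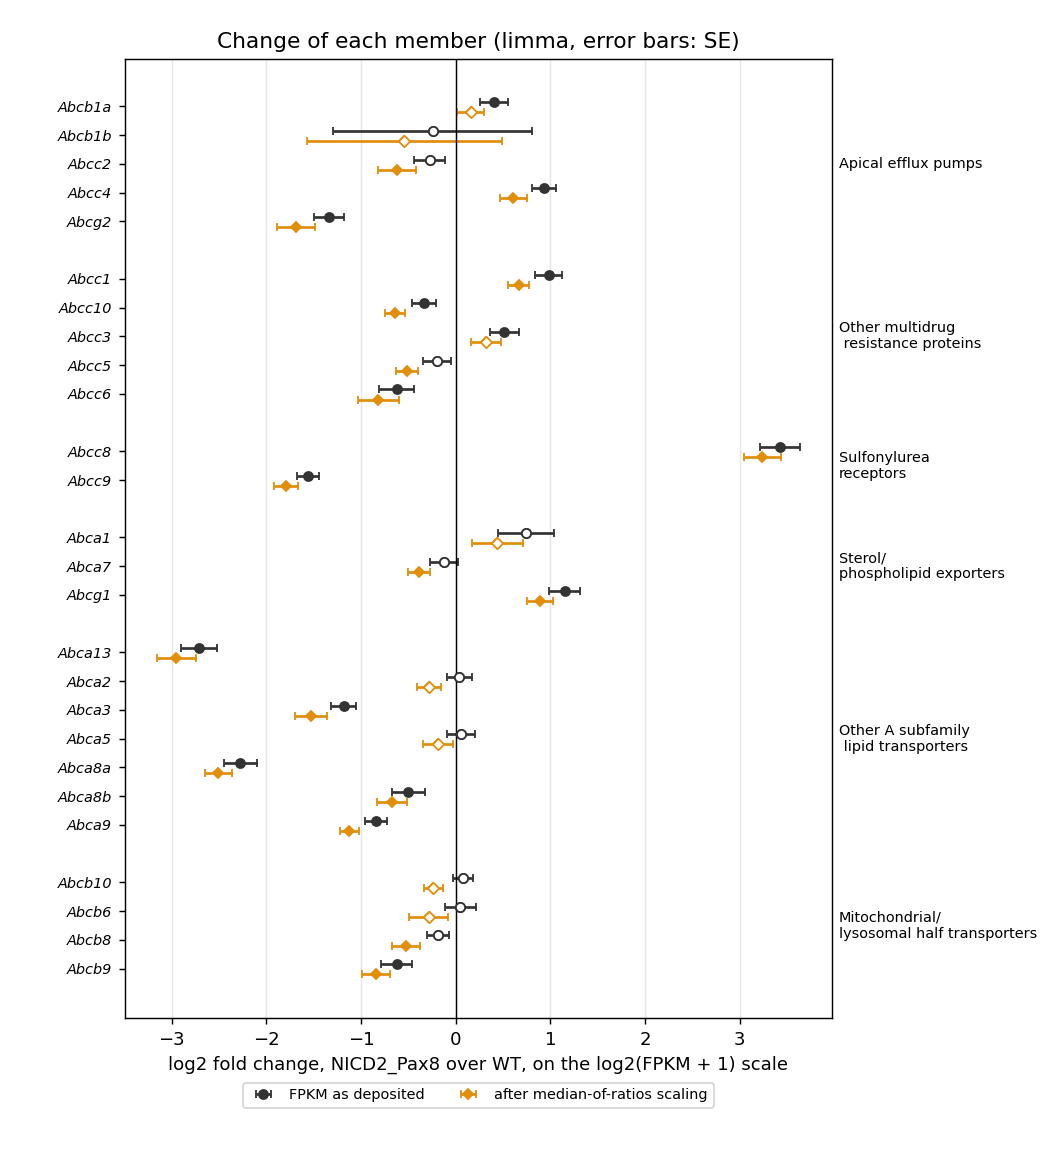
The log2 fold change of NICD2_Pax8 over WT for 26 of the tested members, with standard errors, from FPKM as deposited (black circles) and after median-of-ratios scaling (orange diamonds). Open symbols did not pass an adjusted p of 0.05. Abcc8 lies farthest to the right at 3.43 and Abca13 farthest to the left at -2.71. Scaling moved every member shown to the left, and Abca2, Abca5, Abcb6 and Abcb10 crossed 0.

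The family took 0.0826% to 0.0861% of all FPKM in the WT libraries and 0.0567% to 0.0590% in the NICD2_Pax8 libraries. Abcg2 alone was 28.6% to 40.6% of the family's summed FPKM in WT and 21.0% to 23.1% in NICD2_Pax8. In WT the next levels belonged to Abca3 at 81.4 ± 7.33 and Abcc2 at 47.2 ± 9.46 FPKM (SD, n = 3), and the ranges of these 3 genes did not overlap. In NICD2_Pax8 the order below Abcg2 was Abcc2 at 38.4 ± 3.37 and Abca3 at 35.5 ± 4.94 FPKM (SD, n = 3), whose ranges overlapped. Among the 27 tested members, Abcc8 moved from place 27 by mean FPKM in WT to place 8 in NICD2_Pax8, and Abca13 from place 8 to place 24. Abcc8 passed the filter only through its NICD2_Pax8 values, so its last place in WT follows largely from the filter. Some members under the filter were lower in WT, such as Abca17 at a mean of 0.077 FPKM against 0.133 FPKM for Abcc8.

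**Figure D2:**
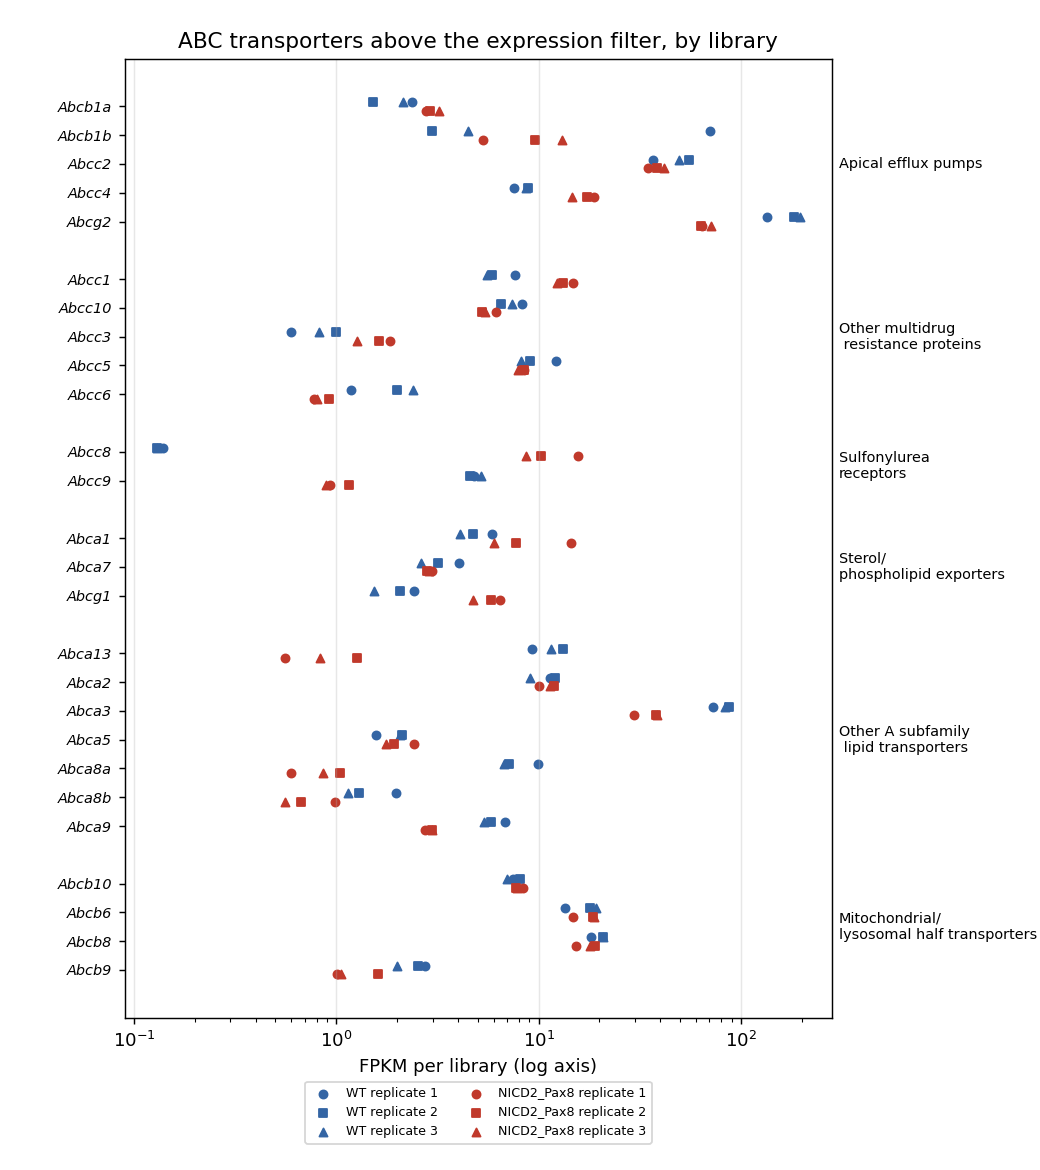
FPKM of 26 of the tested members in each of the 6 libraries on a log axis, grouped by role, with WT in blue and NICD2_Pax8 in red and 1 marker shape per replicate number. Abcc8 shows the widest gap between the groups, and the circle of WT replicate 1 for Abcb1b lies far to the right of the other 5 libraries.

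Abcc8 (gene 20927, GRCm38 chromosome 7, 46104523 to 46180039, minus strand) encodes the sulfonylurea receptor best known from insulin-secreting cells. It stood at 0.14, 0.13 and 0.13 FPKM in WT replicates 1 to 3 and at 15.7, 10.2 and 8.67 FPKM in NICD2_Pax8 replicates 1 to 3. The groups lay far apart, and the spread was wider among the NICD2_Pax8 libraries. The means were 0.133 ± 0.00577 and 11.5 ± 3.67 FPKM (SD, n = 3 each), 86.4-fold higher in NICD2_Pax8, with a log2 fold change of 3.43 on the log2(FPKM + 1) scale (SE 0.21, adjusted p = 6.39e-05). By the estimated depth and the longest transcript of the gene, the WT values rest on about 11 to 12 fragments a library and the others on about 857 to 1395. The scaled fold was 67.4.

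The pore that this receptor regulates is encoded by Kcnj11, whose row begins 3.57 kb from that of Abcc8 with no gene between them. Kcnj11 stood at 0.42, 0.35 and 0.13 FPKM in WT and at 5.26, 5.43 and 3.73 FPKM in NICD2_Pax8. Again all 3 NICD2_Pax8 libraries lay above all 3 WT libraries, and the gene rose 16.0-fold in mean FPKM (log2 fold change 2.15, SE 0.17, adjusted p = 1.31e-04). On the far side of Kcnj11, 74 kb from Abcc8 with Kcnj11 and Nomo1 between, lies another member, Abcc6, which is described with the multidrug resistance proteins and fell.

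Abcc9 (gene 20928, chromosome 6, 142587862 to 142702766, minus strand) encodes the sulfonylurea receptor of muscle and blood vessel walls. Its WT values were 4.82, 4.6 and 5.2 FPKM and its NICD2_Pax8 values 0.93, 1.16 and 0.89 FPKM. The ranges did not overlap, and the gene fell 4.91-fold in mean FPKM (log2 fold change -1.56, SE 0.12, adjusted p = 1.15e-04). Kcnj8, the pore gene that pairs with this receptor in vessels and lies 16.2 kb away, stood at 3.63, 2.53 and 2.86 FPKM in WT and at 1.11, 1.22 and 1.21 FPKM in NICD2_Pax8, 2.55-fold lower in the mean (log2 fold change -0.87, SE 0.14, adjusted p = 0.00192). Both calls held after scaling.

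Kcnj8 is also 1 of the 5 markers of pericytes and smooth muscle used here. Their summed FPKM was 58 to 81.5 in WT and 169 to 205 in NICD2_Pax8, with Acta2 and Rgs5 higher (Rgs5 not after scaling), Kcnj8 lower and none of the 5 at 0. The 5 endothelial markers summed to 105 to 133 FPKM in WT and 47.7 to 62.8 in NICD2_Pax8, with 4 of 5 lower. What part such cells have in the fall of Abcc9 was not tested.

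**Figure D3:**
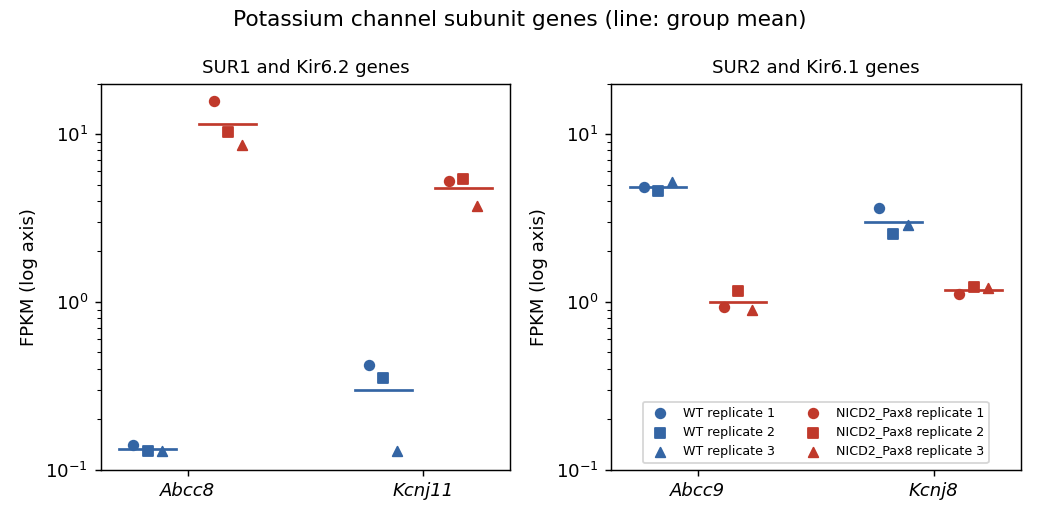
FPKM on a log axis of the receptor and pore genes of the ATP-sensitive potassium channels, with 1 point per library and a line at each group mean. Abcc8 and Kcnj11 are higher in all 3 NICD2_Pax8 libraries than in any WT library, and Abcc9 and Kcnj8 are lower.

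The 5 apical efflux pumps of the tubule did not move as a group: Abcg2 fell, Abcc4 and Abcb1a rose, and Abcc2 and Abcb1b did not pass. After scaling 1 rose and 2 fell, and without WT replicate 1, 3 rose and 2 fell. Among all genes tested 45.1% rose and 16.2% fell. These shares were 28.7% and 25.7% after scaling, and 49.1% and 16.9% without WT replicate 1. Abcg2 (gene 26357, chromosome 6, 58584491 to 58692451, plus strand) pumps urate and many drugs and was the most abundant member in every library. It stood at 135, 184 and 196 FPKM in WT and at 64.2, 63.8 and 71.3 FPKM in NICD2_Pax8. All 3 NICD2_Pax8 values lay below the lowest WT value, a 2.58-fold fall in mean FPKM from 171 ± 32.4 to 66.4 ± 4.25 (SD, n = 3 each). The log2 fold change was -1.34 (SE 0.16, adjusted p = 5.10e-04). The fall was 3.33-fold after scaling. The proximal tubule markers, which fell 8 of 8 with a median log2 fold change of -3.90, moved in the same direction, and their part in the fall of Abcg2 was not tested.

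Abcc4 (gene 239273, chromosome 14, 118482692 to 118707856, minus strand) exports cyclic nucleotides, urate and organic anions. WT libraries held 7.55, 8.84 and 8.66 FPKM and NICD2_Pax8 libraries 18.8, 17.3 and 14.7 FPKM. The groups did not overlap, and the level rose 2.03-fold (log2 fold change 0.94, SE 0.12, adjusted p = 8.54e-04) or 1.58-fold after scaling.

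Abcc2, which exports glutathione and glucuronide conjugates, differed less. It stood at 36.9, 55.4 and 49.4 FPKM in WT and 34.9, 38.6 and 41.7 FPKM in NICD2_Pax8, and WT replicate 1 lay within the NICD2_Pax8 range. The log2 fold change was -0.27 (SE 0.16, adjusted p = 0.184), with a 95% interval of -0.66 to 0.11. Without WT replicate 1 it was -0.44 (adjusted p = 0.0159), and after scaling -0.62 (adjusted p = 0.0392).

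Abcb1a and Abcb1b, neighbours on chromosome 5, encode the mouse forms of P-glycoprotein, a pump for hydrophobic drugs. Abcb1a stood at 2.36, 1.52 and 2.14 FPKM in WT and 2.78, 2.9 and 3.21 FPKM in NICD2_Pax8, with no overlap. Its log2 fold change of 0.41 (SE 0.15, adjusted p = 0.0473) lay just inside the threshold. Leaving out any 1 library other than WT replicate 1 ended the call (log2 fold change 0.29 to 0.44), as did scaling (0.16, adjusted p = 0.376).

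Abcb1b rested on a single library. WT replicate 1 held 70.5 FPKM, while WT replicates 2 and 3 held 2.98 and 4.5 FPKM and NICD2_Pax8 replicates 1 to 3 held 5.32, 9.64 and 13.1 FPKM. Over all 6 libraries the log2 fold change was -0.24 (SE 1.05, adjusted p = 0.855), with a 95% interval of -2.75 to 2.27. Without WT replicate 1 the direction turned: all 3 NICD2_Pax8 values lay above both remaining WT values, with a 2.50-fold higher mean and a log2 fold change of 1.07 (adjusted p = 0.0369). After scaling without that library the log2 fold change was 0.72 (adjusted p = 0.138). The same library held the adrenal transcripts, with all 5 adrenal markers at their highest there, and their part in its Abcb1b level was not tested. The transcripts of the pair share sequence: 15.5% of the 50-base words of the longest Abcb1a transcript also occur in Abcb1b, and 18% the other way, so fragments may be split between the rows. Abcb1a in WT replicate 1 was at 2.36 FPKM. The row of Abcb1a also overlaps Rundc3b on the opposite strand, which averaged 0.375 FPKM.

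**Figure D4:**
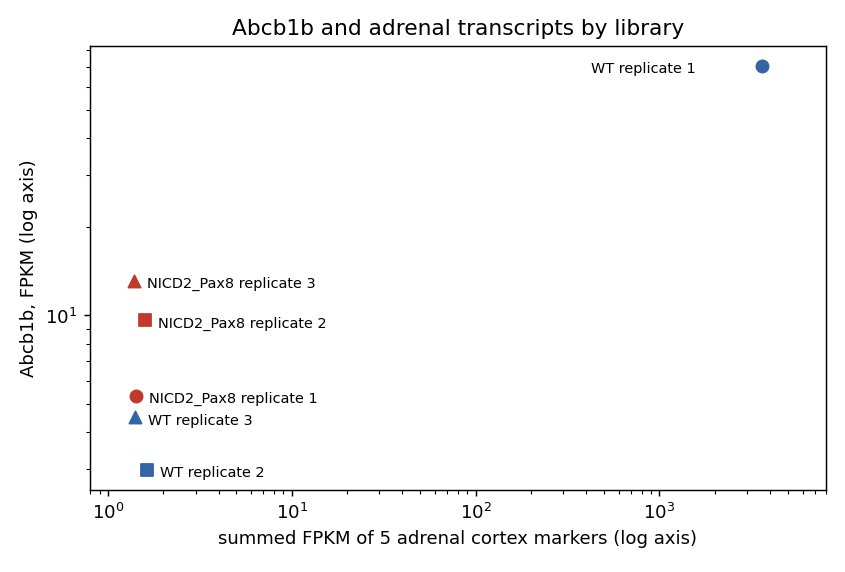
Abcb1b in FPKM against the summed FPKM of 5 adrenal cortex markers, both on log axes, with 1 point per library. WT replicate 1 stands alone at 3629 and 70.5 FPKM, and the other 5 libraries lie between 1.39 and 1.63 on the horizontal axis with Abcb1b between 2.98 and 13.1.

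Scaffold proteins hold several of these pumps at the brush border. Of 5 scaffold genes 4 rose and 1 fell, with 3 rising and 1 falling after scaling. Among all genes tested the shares were 45.1% rising and 16.2% falling, and 28.7% and 25.7% after scaling. Pdzk1, which binds transporters by their tails, fell 3.71-fold from 506 ± 97.6 to 136.3 ± 40.4 FPKM, whereas Slc9a3r1 rose 2.52-fold from 133 ± 33 to 334 ± 55.3 FPKM and Ezr, the link to actin, 2.44-fold from 125 ± 22.2 to 304 ± 33.3 FPKM (SD, n = 3 each).

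The other multidrug resistance proteins of subfamily C stand mostly in the basolateral membrane or inside the cell. Of 5 tested, 2 rose and 2 fell, or 2 and 1 without WT replicate 1 and 1 and 3 after scaling. Over all genes tested 45.1% rose and 16.2% fell, or 28.7% and 25.7% after scaling. Abcc1 (gene 17250, chromosome 16, 14361453 to 14474878, plus strand), a pump for glutathione conjugates and leukotrienes, stood at 7.64, 5.89 and 5.55 FPKM in WT and at 14.8, 13.2 and 12.3 FPKM in NICD2_Pax8. The groups lay apart, with a 2.12-fold rise (log2 fold change 0.98, SE 0.14, adjusted p = 0.00117; 1.67-fold after scaling). Nfe2l2, a regulator that activates several Abcc genes, rose 3.13-fold in the same kidneys, from 50.2 ± 5.41 to 157 ± 16.1 FPKM (SD, n = 3 each). Its part in the rise of Abcc1 was not tested.

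The remaining calls of this group were weaker. Abcc3, a basolateral exporter of conjugates, was at 0.6, 1 and 0.82 FPKM in WT and 1.84, 1.63 and 1.27 FPKM in NICD2_Pax8 (log2 fold change 0.51, adjusted p = 0.0237). Abcc6, mutated in pseudoxanthoma elasticum, was at 1.19, 2 and 2.41 FPKM in WT and 0.78, 0.92 and 0.8 FPKM in NICD2_Pax8 (log2 fold change -0.62, adjusted p = 0.0243). Neither gene overlapped between groups, but the call of Abcc3 ended after scaling and without NICD2_Pax8 replicate 1, NICD2_Pax8 replicate 2 or WT replicate 3 (0.44 to 0.52). The call of Abcc6 held after scaling and ended without any library other than WT replicate 1 (-0.66 to -0.48).

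Abcc10, a broad drug pump, had 8.25, 6.5 and 7.36 FPKM in WT and 6.14, 5.27 and 5.45 FPKM in NICD2_Pax8, with no overlap and a log2 fold change of -0.34 (adjusted p = 0.0498). That call ended without WT replicate 1, WT replicate 3, NICD2_Pax8 replicate 2 or NICD2_Pax8 replicate 3 (-0.33 to -0.26), and after scaling it stood at -0.64 (adjusted p = 0.00287). Abcc5, an exporter of cyclic nucleotides, was at 12.1, 9.03 and 8.17 FPKM in WT and 8.45, 8.5 and 7.92 FPKM in NICD2_Pax8, which overlapped. It did not pass unscaled (log2 fold change -0.20, adjusted p = 0.292) and was lower after scaling (-0.51, adjusted p = 0.00896).

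Of the exporters of sterol and phospholipid, 3 were tested, 1 rose and 0 fell, or 1 and 1 after scaling. Among all genes tested 45.1% rose and 16.2% fell, or 28.7% and 25.7% after scaling. Abcg1 (gene 11307, chromosome 17, 31057694 to 31117984, plus strand), which hands cholesterol to lipoproteins, stood at 2.43, 2.06 and 1.54 FPKM in WT and 6.43, 5.83 and 4.77 FPKM in NICD2_Pax8. The ranges did not overlap, and the mean rose 2.82-fold (log2 fold change 1.15, SE 0.16, adjusted p = 0.00108; 2.23-fold after scaling). Abca1, its partner in cholesterol export, was at 5.9, 4.72 and 4.09 FPKM in WT and 14.4, 7.72 and 6.02 FPKM in NICD2_Pax8. The ranges were apart by a narrow margin and NICD2_Pax8 replicate 1 was far above the other libraries. The gene did not pass (log2 fold change 0.74, SE 0.29, adjusted p = 0.0631). Without NICD2_Pax8 replicate 3 it passed at 0.98 (adjusted p = 0.0298), and without NICD2_Pax8 replicate 1 it stood at 0.42 (adjusted p = 0.0998).

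Abca7, a phospholipid exporter, was at 4.03, 3.18 and 2.62 FPKM in WT and 2.96, 2.8 and 2.88 FPKM in NICD2_Pax8, inside the WT range. Its log2 fold change was -0.13 (adjusted p = 0.482), and -0.39 after scaling (adjusted p = 0.0288). The scaled call ended without WT replicate 1 (-0.31, adjusted p = 0.0503). Macrophages also express these exporters, and the summed FPKM of 5 macrophage markers was 28 to 45.6 in WT and 90.8 to 99.4 in NICD2_Pax8, with 2 of 5 called higher and none at 0. Without WT replicate 1, 4 of 5 were higher, or 3 higher and 1 lower after scaling as well. Cd14 alone went from 4.50 ± 2.08 to 46.8 ± 11.5 FPKM (SD, n = 3 each). Their part in the rise of Abcg1 was not tested.

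Abca1 and Abcg1 are textbook targets of the oxysterol receptors encoded by Nr1h3 and Nr1h2. Among 13 tested regulators of ABC genes 5 rose and 4 fell (3 and 5 after scaling). These are 38.5% and 30.8%, against 45.1% and 16.2% of all genes tested. After scaling they are 23.1% and 38.5%, against 28.7% and 25.7%. Nr1h3 fell 1.85-fold from 28.4 ± 1.3 to 15.4 ± 3.38 FPKM and Nr1h2 was 1.44-fold higher, from 41.1 ± 1.9 to 59 ± 4.25 FPKM, a call that ended after scaling (SD, n = 3 each). By unscaled log2 fold change, the called genes of this list that changed most were Nfe2l2, with the rise given above, Nr1h4, the bile acid receptor, with a 2.90-fold fall, and Srebf2, the activator of sterol synthesis, with a 2.22-fold rise. The part of these regulators in the levels of ABC genes was not tested.

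The other members of subfamily A, most of them lipid transporters by homology, held 5 of the 10 falls: of 7 tested, 5 fell and 0 rose, with a median log2 fold change of -0.84. The falls made up 71.4%, against 16.2% of all genes tested, of which 45.1% rose. After scaling 5 also fell and 0 rose, against 25.7% and 28.7% of all genes. Without WT replicate 1 4 fell. The difference from all genes was not tested. Abca13 (gene 268379, chromosome 11, 9191942 to 9684871, plus strand) is the longest protein of the family. It stood at 9.29, 13.2 and 11.5 FPKM in WT and at 0.56, 1.27 and 0.83 FPKM in NICD2_Pax8. The groups were far apart, with a 12.8-fold fall (log2 fold change -2.71, SE 0.19, adjusted p = 8.81e-05; 16.4-fold after scaling).

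Abca3 (gene 27410, chromosome 17, 24352023 to 24425898, plus strand), best known for loading phospholipid into the lamellar bodies of lung cells, stood at 73.2, 87.2 and 84 FPKM in WT and 29.8, 38 and 38.6 FPKM in NICD2_Pax8. There was no overlap, and the mean fell 2.30-fold (log2 fold change -1.18, SE 0.13, adjusted p = 4.54e-04; 2.95-fold after scaling). The gene model in the file runs over the whole of Rnps1 on the same strand, 11349 bases. Rnps1 rose from 30.5 ± 2.42 to 82.9 ± 0.959 FPKM (SD, n = 3 each), opposite to Abca3, and how fragments were split between these rows is not given in the sources used here.

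Abca8b, Abca8a, Abca9, Abca6 and Abca5 lie in this order in one array on chromosome 11 (109932206 to 110337721), all on the minus strand, with gaps of 2.47 to 29.4 kb and no other gene between them. 3 of the 4 tested members of the array fell, and Abca5, at one end, did not pass. The same 3 fell after scaling. Among all genes tested 16.2% fell, or 25.7% after scaling, and the difference was not tested. Abca8a (gene 217258) went furthest, from 9.91, 7.17 and 6.77 FPKM in WT to 0.6, 1.05 and 0.86 FPKM in NICD2_Pax8, with no overlap. Its mean fell 9.50-fold (log2 fold change -2.28, SE 0.18, adjusted p = 1.15e-04; -2.51 after scaling).

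Abca9 was at 6.83, 5.79 and 5.39 FPKM in WT and 2.74, 2.98 and 2.97 FPKM in NICD2_Pax8, a 2.07-fold fall with groups apart (log2 fold change -0.84, adjusted p = 0.00117). For Abca8b the values were 1.97, 1.3 and 1.14 against 0.99, 0.67 and 0.56 FPKM, also apart (log2 fold change -0.50, adjusted p = 0.0459), and the call ended without WT replicate 1, WT replicate 2, NICD2_Pax8 replicate 2 or NICD2_Pax8 replicate 3 (-0.54 to -0.36). Abca6 was under the filter, at 0.43, 0.6 and 0.44 against 0.18, 0.15 and 0.21 FPKM, and was lower in the authors' deposited table (q = 2.07e-05). Abca5 stood at 1.58, 2.12 and 2.07 FPKM in WT and 2.43, 1.92 and 1.76 FPKM in NICD2_Pax8, fully overlapping (log2 fold change 0.05, 95% interval -0.30 to 0.40, adjusted p = 0.766; -0.18 after scaling).

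Shared transcript sequence in the array was small, with 1.89% of the 50-base words of Abca8a found in Abca8b. Markers of fibroblasts and fat were read beside these values. The 4 fibroblast markers summed to 84.2 to 180.8 FPKM in WT and 107.6 to 118.8 in NICD2_Pax8, with 1 rising, 2 falling and none at 0. The sum joins opposite moves: mean Col1a1 rose from 22.2 to 85.4 FPKM, and mean Dcn fell from 87.5 to 24.9 and Pdgfra from 8.76 to 3.66 FPKM. Lum did not pass unscaled and was lower after scaling, when 1 of the 4 rose and 3 fell. The 5 adipocyte markers summed to 152 to 4310 FPKM in WT and 63.1 to 413.6 in NICD2_Pax8, with none at 0, and the part of either was not tested. Without WT replicate 1, the highest in both sums, the log2 fold change of Abca8a was -2.12 and that of Abca9 -0.76, both still called.

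**Figure D5:**
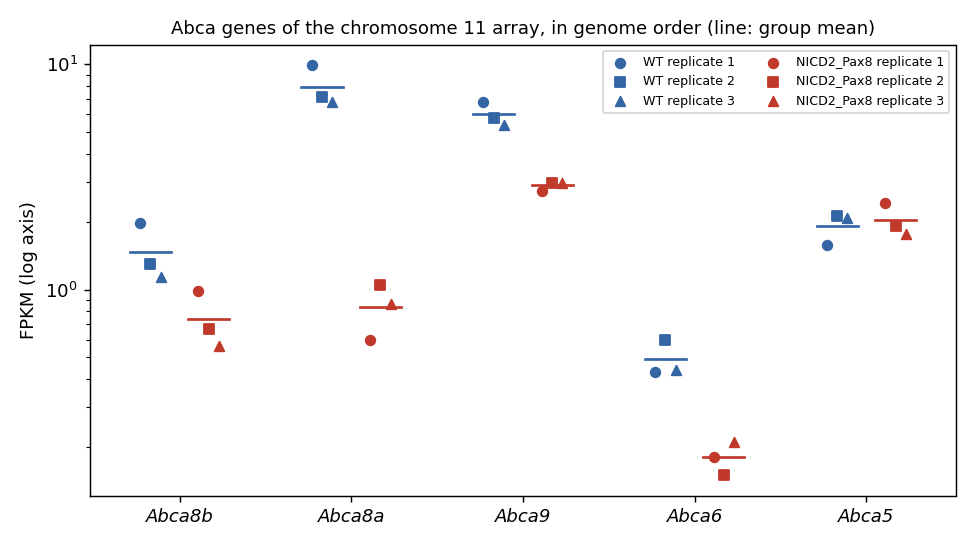
FPKM on a log axis of the 5 Abca genes of the chromosome 11 array in genome order, with 1 point per library and a line at each group mean. All NICD2_Pax8 points of Abca8b, Abca8a, Abca9 and Abca6 lie below the WT points, and those of Abca5 are mixed with them.

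The promoters of 4 genes of the array are shown because its members moved unequally. Abca6 had no entry. Each run is the 250 bases before the RefSeq start (GRCm38.p6, minus strand), 5′ to 3′. The search covered TGGGAA, the core bound by RBPJ, through which the Notch intracellular domain acts on DNA, and CACGTG, an E-box that Hes and Hey repressors can bind, on both strands. Capitals mark the matches, and the motifs do not overlap each other.
Abca8b, chr11:109995846-109996095: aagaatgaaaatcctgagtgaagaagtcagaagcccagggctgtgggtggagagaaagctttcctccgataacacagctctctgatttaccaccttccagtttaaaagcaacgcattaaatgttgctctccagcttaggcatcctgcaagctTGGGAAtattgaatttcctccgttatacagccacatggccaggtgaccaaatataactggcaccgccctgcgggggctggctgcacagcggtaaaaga
Abca8a, chr11:110095938-110096187: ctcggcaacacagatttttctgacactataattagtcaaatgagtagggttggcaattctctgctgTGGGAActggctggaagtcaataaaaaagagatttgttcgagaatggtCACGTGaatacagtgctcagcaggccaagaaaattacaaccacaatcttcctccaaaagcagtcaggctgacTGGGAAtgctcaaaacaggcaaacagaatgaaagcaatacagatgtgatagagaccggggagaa
Abca9, chr11:110168154-110168403: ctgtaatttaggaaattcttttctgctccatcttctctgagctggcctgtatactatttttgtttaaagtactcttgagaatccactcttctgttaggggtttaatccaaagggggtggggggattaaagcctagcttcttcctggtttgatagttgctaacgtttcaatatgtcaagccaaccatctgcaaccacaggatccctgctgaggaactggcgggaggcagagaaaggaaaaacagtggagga
Abca5, chr11:110337717-110337966: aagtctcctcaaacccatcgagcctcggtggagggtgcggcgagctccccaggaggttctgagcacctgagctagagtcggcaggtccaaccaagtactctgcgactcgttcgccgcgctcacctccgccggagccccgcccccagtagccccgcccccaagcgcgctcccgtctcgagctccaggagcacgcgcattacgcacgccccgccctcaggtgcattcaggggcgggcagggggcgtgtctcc

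The window of Abca8a held TGGGAA at 184 and 64 bases before the start and CACGTG at 136, and that of Abca8b held TGGGAA at 98. The windows of Abca9 and Abca5 held neither. On this minus strand the deposited gene models of Abca8a and Abca8b start at 110097580 and 109996274. Both windows therefore lie inside the gene models whose FPKM is given, not before them. The gene models of Abca9 and Abca5 start at 110168274 and 110337721, inside their windows. Among all 32851 RefSeq windows of this length, 21.6% held TGGGAA and 6.02% CACGTG, and of 36 windows of members 19.4% and 8.33%. The base composition also differed along the array: G and C made up 43.2% to 48.8% of the windows of Abca8a, Abca8b and Abca9 and 69.2% of that of Abca5. A match is a run of letters and not a measured binding site.

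Abca2, a lipid transporter of endosomes and lysosomes, was at 11.4, 12 and 9.09 FPKM in WT and 10, 12 and 11.4 FPKM in NICD2_Pax8. Its ranges overlapped, with a log2 fold change of 0.04 (adjusted p = 0.814) and of -0.28 after scaling (adjusted p = 0.0944).

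Among the transporters of mitochondria and lysosomes described here, Abcb9 fell, and Abcb6, Abcb8 and Abcb10 did not pass without scaling. The values of Abcb9, a peptide transporter of lysosomes, went from 2.74, 2.54 and 1.99 FPKM in WT to 1.01, 1.61 and 1.06 FPKM in NICD2_Pax8, with groups apart (log2 fold change -0.62, SE 0.16, adjusted p = 0.0137). Without NICD2_Pax8 replicate 3 or WT replicate 2 this call ended (adjusted p = 0.0543 and 0.0508).

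Abcb8, of the inner mitochondrial membrane, was at 18.1, 20.9 and 20.7 FPKM in WT and 15.3, 18.9 and 17.9 FPKM in NICD2_Pax8, overlapping (log2 fold change -0.19, adjusted p = 0.206; -0.52 and adjusted p = 0.0228 after scaling). Its row overlaps that of Cdk5 on the opposite strand by 5163 bases. Abcb6, a porphyrin transporter, was at 13.5, 18 and 19.2 against 14.8, 18.6 and 18.8 FPKM, and Abcb10, needed for heme synthesis, at 7.48, 8.13 and 6.99 against 8.36, 7.76 and 7.82 FPKM. Both overlapped, with log2 fold changes of 0.05 (95% interval -0.34 to 0.44) and 0.08 (-0.17 to 0.32). After scaling they were -0.29 and -0.24, and neither passed. Scaled without WT replicate 1, both were lower, at -0.49 for Abcb6 (adjusted p = 0.0297) and -0.30 for Abcb10 (adjusted p = 0.0389). Quantile normalization also gave a lower call for Abcb10 (-0.32, adjusted p = 0.0303).

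The 13 members under the filter were Abca4, Abca6, Abca12, Abca14, Abca17, Abcb4, Abcb5, Abcb11, Abcc12, Abcg3, Abcg4, Abcg5 and Abcg8. Apart from Abca4 and Abcg4, they reached at most 0.62 FPKM in any library. Abca4, the retinoid transporter of photoreceptors, was at 0.63, 1.61 and 1.1 FPKM in WT and 0.63, 0.71 and 0.93 FPKM in NICD2_Pax8. Abcg4 was at 2.05 FPKM in WT replicate 1 and at 0.05 to 0.18 FPKM in the other 5 libraries, and the authors' deposited table lists it as lower in NICD2_Pax8 (q = 0.0196). Abcb11, the bile salt pump of liver, was listed at 0 in the 3 WT libraries and at 0.01, 0.09 and 0.17 FPKM in NICD2_Pax8 (q = 0.0342 in the authors' deposited table). Abcb4, Abcg5 and Abcg8, the other bile exporters of liver, reached at most 0.2, 0.03 and 0.07 FPKM.

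The rest of the ABC superfamily, outside the name rule, was read for comparison. Of its 10 tested genes 5 rose and 2 fell, with a median log2 fold change of 0.38, with 3 and 2 after scaling and 6 and 2 without WT replicate 1. These shares, 50% and 20%, lie near the 45.1% and 16.2% of all genes tested, and the scaled 30% and 20% near 28.7% and 25.7%. The difference from the members was not tested. Tap1 and Tap2, which load peptides for antigen presentation, rose 7.11-fold and 5.33-fold in mean FPKM. Abcd3, an importer of peroxisomes, fell 2.32-fold. Cftr, the chloride channel of the superfamily, was chosen after its values were seen. It stood at 1.64, 1.66 and 1.16 FPKM in WT and 4.76, 3.38 and 5.51 FPKM in NICD2_Pax8, with no overlap and a 3.06-fold rise (log2 fold change 1.15, SE 0.18, adjusted p = 0.00181).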

How the data were processed

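Expression was deposited as FPKM per gene and library, made by the authors per the file headers. The table had 23873 rows, of which 19503 held values. Bowtie 0.12.2 and mm8 appear in the submitters' processing notes. Positions are read as GRCm38, because 19406 of 22002 rows found in RefSeq's GRCm38 annotation, and 32 of 40 members, shared both ends with it. How fragments were counted and scaled into FPKM is not given in the sources used here. The authors also deposited log2 fold changes, p-values and q-values of the group comparison, the q-values from DESeq2 per the file headers. There were 0 columns of other libraries.

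The 13500 genes reaching 1 FPKM in 3 or more libraries were tested with limma 3.58.1 (R 4.3.3, mean-variance trend, two-sided, genotype as the only term) on log2(FPKM + 1). Adjusted p under 0.05 was called, with Benjamini-Hochberg adjustment over all genes tested. The script was tested on simulated data. Alternatives were other pseudocounts, scalings and thresholds, no filter, a replicate block and leaving out each library. Fits without 1 library kept genes at 1 FPKM in at least 2 libraries, so that a gene found in 1 group could enter. Scaled values are FPKM divided by median-of-ratios factors.

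Members, roles and lists were chosen with earlier results of these data known. Per-library values are given for called members with groups apart and a log2 fold change of at least 1 in size, for the apical efflux pumps, and for members whose call or direction turned on 1 library or on scaling. Of other lists, up to 3 genes with the largest change were named, with any gene a result turned on. Promoters came from a RefSeq table of GRCm38.p6, which held 36 windows for 31 of 40 members, and transcripts from GENCODE M21. The values of 1 tested member are not reported here, though counts over the family include it.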

Additional observations from a re-analysis of the deposited data

How the results depend on the processing

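With quantile normalization 16 members fell, and with median-of-ratios scaling without WT replicate 1 17 did. The 17 include Abca4 (log2 fold change -0.63, adjusted p = 0.0160), which is under the main filter and entered through the filter of fits without 1 library. At an adjusted p of 0.01 6 fell, and with a log2 fold change of at least 1 in size 2 rose and 5 fell. Leaving out 1 library gave 4 to 7 rising and 6 to 10 falling members, the fewest falls without NICD2_Pax8 replicate 3. The same fits gave 5155 to 6753 rises and 1839 to 2319 falls over all genes, with 1886 falls without NICD2_Pax8 replicate 3. At an adjusted p of 0.01, 1543 of all genes fell. Over all genes, 3873 rose and 3473 fell with median-of-ratios scaling, 3866 and 3558 with quantile normalization, 2427 and 1009 with the minimum log2 fold change, and 3873 fell with the scaling without WT replicate 1. The cause of these differences was not tested.

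Directions turned for 5 members. Abcb1b had a log2 fold change between -1.01 and 1.07 when 1 library was left out, at 0.08 without NICD2_Pax8 replicate 1 and 1.07 without WT replicate 1, and 0.72 with the scaling without that library. With median-of-ratios scaling, the same without WT replicate 1, quantile normalization and upper quartile scaling, Abcb10 stood at -0.24, -0.30, -0.32 and -0.18, Abcb6 at -0.29, -0.49, -0.30 and -0.22, Abca2 at -0.28, -0.30, -0.35 and -0.22, and Abca5 at -0.18, -0.32, -0.30 and -0.14. Leaving out 1 library gave -0.10 to 0.15 for Abcb6, -0.072 to 0.11 for Abca2 and -0.037 to 0.12 for Abca5.

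Replicate numbers are shared between the groups. Deviations of same-numbered libraries from their group means correlated at 0.095, -0.050 and 0.0056, and those of other pairs at -0.12 to 0.20. With 3 libraries a group, this cannot show whether the numbers pair them, and the main fit used no pairing. With the replicate number as a block 5 members rose and 9 fell, against 6 and 10: Abcb1a, Abcc3 and Abcc10 no longer passed and Abca1 did. Over all genes 5818 rose and 2164 fell in that fit, against 6095 and 2190. Pseudocounts of 0.1 and 5 and the absence of a filter ended calls of Abcb1a, Abca8b or Abcc10 only, all near the threshold. Low members rest on few fragments: the WT values of Abcc8 on about 11 to 12 a library.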
